A study of Mus musculus with 39 samples.

Results

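The 3 E protein genes Tcf3, Tcf4 and Tcf12 and the 4 Inhibitor of DNA binding genes Id1, Id2, Id3 and Id4 were taken by symbol from mouse RNA sequencing count tables, 7 genes of the 45706 listed in all 39 libraries. The study asked how E47, a product of Tcf3, takes part in the action of glucocorticoids on metabolism, and it profiled liver, white adipose tissue (WAT) and skeletal muscle (SM). All mice were males on a C57BL/6 background between 10 and 16 weeks of age. Mice with a whole-body deletion of E47 (E47KO) and wild-type (WT) littermates received dexamethasone (Dex, a synthetic glucocorticoid) at 10 µg/ml in the drinking water for 3 weeks, which gave livers of 3 E47KO and 2 WT mice, WAT of 2 and 2, and SM of 3 and 2. Corticosterone (Cort, the natural glucocorticoid of mice) was given the same way at 100 µg/ml for 3 weeks to 4 E47KO and 4 WT mice, whose livers were sequenced, and a further set held livers of 6 untreated E47KO and 5 untreated WT mice. A sixth set held livers taken 1 h after an injection of Dex at 1 mg/kg from 3 mice in which a Cre enzyme driven by the albumin promoter removes the floxed E47 exon in hepatocytes (AlbCreE47KO) and from 3 controls without Cre, of which replicate 1 carried a single floxed allele and replicates 2 and 3 carried a pair. E47KO mice are known to lack mature B cells. In the hepatocyte-specific mutants the deletion is directed to hepatocytes, and liver cells without active Cre keep the floxed exon. Mice on Dex or Cort in the drinking water were fasted overnight and killed after a glucose tolerance test, and 3 of the Dex-treated mice gave both liver and muscle.

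E proteins are basic helix-loop-helix (bHLH) transcription factors that bind the E-box, CANNTG, as pairs with one another or with tissue-restricted bHLH partners such as the myogenic factors of muscle. Tcf3 encodes E12 and E47 by use of alternative exons, Tcf4 encodes E2-2 and Tcf12 encodes HEB. Id proteins hold the helix-loop-helix part without the basic part that contacts DNA, so an E protein paired with an Id protein cannot bind, and the Id genes are classical targets of bone morphogenetic protein (BMP) signalling through Smad proteins.

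E12 and E47 differ in the exon that encodes their bHLH domain, and a count per gene merges both, so the 2 alternative exons are shown to make clear what the Tcf3 values can and cannot report. Both were read from the transcript models on GRCm38 (mm10), on the minus strand. The first in the direction of transcription lies at chr10:80412827-80413062, is 236 bases long and is held by 4 of 12 coding transcripts. The second lies at chr10:80410398-80410624, is 227 bases long and is held by 6 of 12. Capitals mark the 181 bases that are identical in a global alignment of the 2 exons, 76.1% of its 238 columns.
Tcf3 first alternative exon: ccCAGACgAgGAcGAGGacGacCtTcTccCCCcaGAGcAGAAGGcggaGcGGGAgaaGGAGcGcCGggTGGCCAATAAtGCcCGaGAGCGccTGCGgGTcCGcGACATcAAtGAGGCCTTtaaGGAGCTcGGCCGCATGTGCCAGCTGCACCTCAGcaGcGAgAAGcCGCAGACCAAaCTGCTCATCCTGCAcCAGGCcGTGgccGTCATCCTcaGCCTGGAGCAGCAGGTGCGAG
Tcf3 second alternative exon: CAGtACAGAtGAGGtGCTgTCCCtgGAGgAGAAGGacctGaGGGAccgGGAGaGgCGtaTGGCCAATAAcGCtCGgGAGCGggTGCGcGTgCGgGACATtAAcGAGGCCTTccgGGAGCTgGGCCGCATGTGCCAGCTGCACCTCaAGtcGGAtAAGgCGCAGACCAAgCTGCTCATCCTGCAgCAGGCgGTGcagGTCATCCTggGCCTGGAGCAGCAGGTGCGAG
These exons made up 5.8% and 5.6% of the 4039 exonic bases annotated for Tcf3. Most exonic bases of Tcf3 lie outside both, so removal of one exon need not change the count of the gene by much.

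The gene Tcf3 lies at chr10:80409514-80433647 (minus strand), Tcf4 at chr18:69343356-69689079 (plus), Tcf12 at chr9:71842688-72111871 (minus), Id1 at chr2:152736251-152737410 (plus), Id2 at chr12:25093799-25097140 (minus), Id3 at chr4:136143497-136145755 (plus) and Id4 at chr13:48261228-48266026 (plus). Exons of Id4 overlap those of 2 genes on the other strand, A330033J07Rik and Gm49291, and reads from either strand cannot be told apart in counts made without strand. The other 6 shared no exon with another annotated gene.

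Each library held 15.5e6 to 54.6e6 reads assigned to genes, with the lowest totals in the 1 h set (up to 18.1e6) and the highest after Cort (from 37.8e6). The labels of the untreated livers were checked on the B cell gene Cd79a, which had 0 to 2 counts in the 6 E47KO livers and 14 to 24 in the 5 WT livers. The tissues carried their defining markers. Summed levels of 6 hepatocyte genes, in counts scaled to library size (CPM), were 70030 or more in every liver and at most 185.6 in WAT and SM. Adipocyte genes reached 22360 or more in WAT, and muscle fibre genes 112200 or more in SM. Several groups were split by the number given to the animal or the library. In the Cort set 3 livers (WT replicate 1 and E47KO replicates 1 and 2) came from an earlier range of animal numbers than the other 5, in the untreated set 3 livers (E47KO replicate 1 and WT replicates 1 and 2) carried earlier library numbers than the other 8, and in the Dex liver set 3 mice (E47KO replicates 1 and 2 and WT replicate 1) had earlier animal numbers than the other 2. What these numbers stand for was not given. For the E protein and Id genes, calls between treated and untreated livers are given with and without the split Cort and untreated livers. For listed partner, pathway and marker genes they are given with all livers only. No fit is given that leaves out the 3 Dex livers of the earlier animal numbers together.

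The 7 genes spanned a wide range of levels in liver. Per kilobase of annotated exon, untreated WT livers held 38.2 CPM of Id2 (SD 13.5, n = 5), 21.5 of Id3, 3.52 of Id1, 3.46 of Tcf3, 1.55 of Tcf12, 0.43 of Tcf4 and 0.11 of Id4. Thus Id2 and Id3 transcripts stood above all E protein transcripts in this tissue, while Id4 was close to the limit of detection at 10 to 20 reads per library. This order depended on the length used: over the longest single transcript, Tcf4 reached 1.36, Tcf12 3.81 and Tcf3 4.74 CPM per kilobase, and both Tcf12 and Tcf3 then exceeded Id1.

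**Figure D1:**
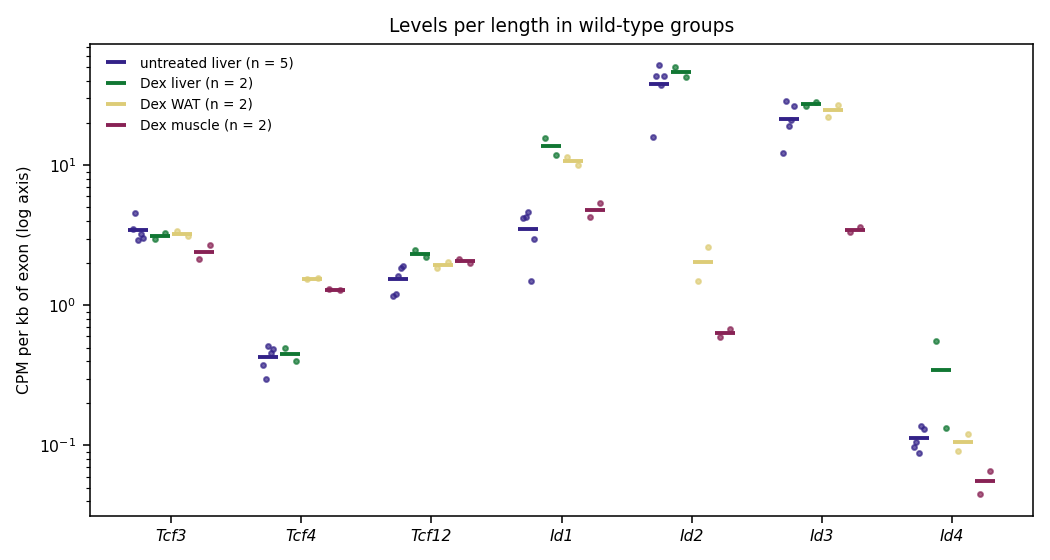
Level of the 7 genes in CPM per kilobase of exon (log axis) in 4 WT groups, untreated liver (n = 5) and Dex-treated liver, WAT and muscle (n = 2 each), with points for libraries and bars for group means. Id2 and Id3 stand highest in liver, at means of 38.2 and 21.5 in untreated liver, and Tcf4 stands higher in WAT and muscle than in liver.

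Across the 12 groups, the E proteins differed less than the Id genes. Mean Tcf12 ranged from 20.9 CPM (SD 0.48, n = 4) in WT liver after Cort to 36.4 CPM (SD 2.98, n = 2) in WT liver after Dex, and no group was separated from the next in the order of means. Mean Tcf3 ranged from 6.76 CPM (SD 0.67, n = 3) in control liver 1 h after Dex to 18.9 CPM (SD 1.81, n = 4) in E47KO liver after Cort. In the order of Tcf3 means, only 2 of 11 neighbouring groups did not overlap: WT liver after Cort lay above E47KO liver after Dex, and WT muscle lay above AlbCreE47KO liver 1 h after Dex. Tcf4 fell into 2 levels, 35.3 to 44.0 CPM in all libraries of WAT and muscle and 8.13 to 16.5 CPM in all 30 livers.

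Id2 had the widest range. Its mean was 186.1 CPM (SD 88.4, n = 3) in E47KO liver after Dex and 1.55 CPM (SD 0.14, n = 2) in WT muscle. The order ran from liver, without separation between the 6 groups other than those at 1 h, to liver at 1 h, WAT and muscle, and the 3 steps between these blocks were without overlap. Id3 ran from 107.8 CPM (SD 48.6, n = 4) in E47KO liver after Cort to 4.26 CPM (SD 0.34, n = 3) in control liver 1 h after Dex. Id1 ran from 18.6 CPM (SD 2.44, n = 3) in E47KO liver after Dex to 3.46 CPM (SD 1.74, n = 3) in control liver at 1 h, and the Dex livers alone stood clear of the next group. Id4 stayed at or below 2.70 CPM in every library, and no neighbouring groups were separated.

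**Figure D2:**
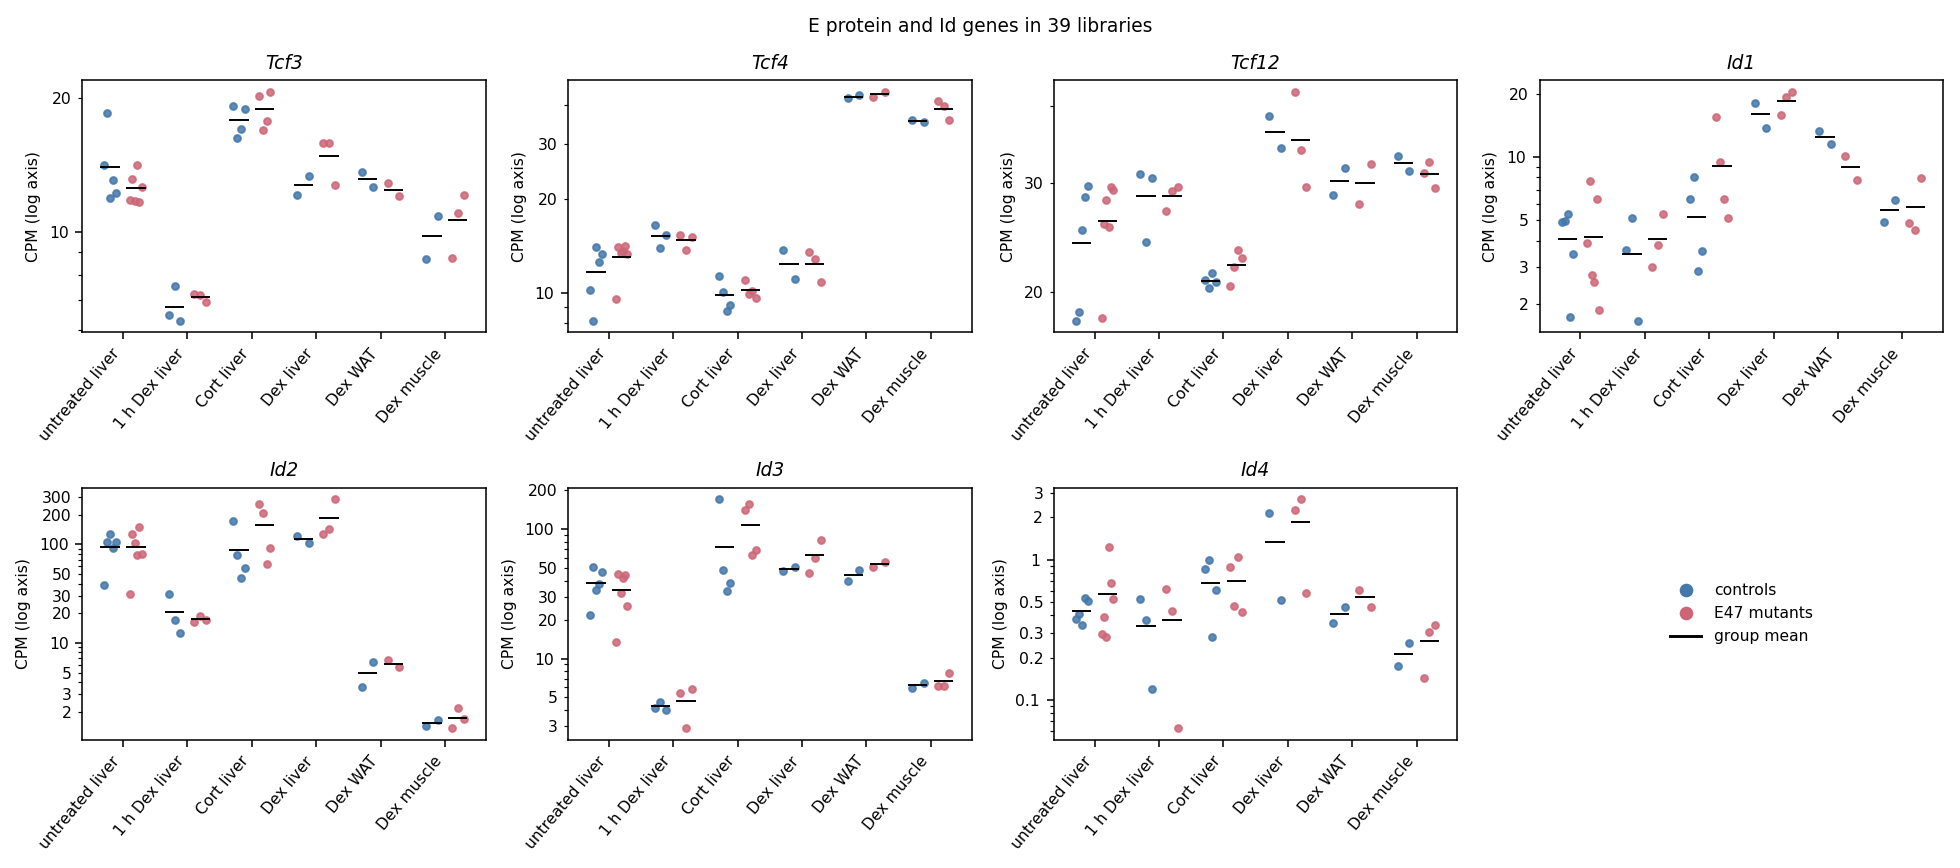
CPM of each of the 7 genes in all 39 libraries (1 panel per gene, log axes that differ between panels), with controls in blue, E47 mutants in red and a line at each group mean. Controls and mutants overlap in most sets, and Tcf3, Id2 and Id3 lie lowest among livers in the set taken 1 h after Dex.

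The first question was whether the targeted gene and its relatives differed between mutant and control mice. They did not pass the test in any set: across 6 genotype comparisons, 0 of 41 values tested were called by the quasi-likelihood test of edgeR at an adjusted p under 0.05, DESeq2 also called 0, and 1 value had an unadjusted p under 0.05. Adjusted p-values ran from 0.572 to 1 and log2 differences from -0.48 to 0.83, with a median size of 0.15. Calls were rare among all genes too, at 0.00752% of 13300 genes after Dex in liver, 0.0274% of 14588 after Cort, 0.0% of 12601 at 1 h, 0.0288% of 13904 untreated, 0.0% of 16289 in WAT and 0.0134% of 14962 in muscle. Where edgeR called no gene, 466 at 1 h and 699 in WAT had an unadjusted p under 0.05, and DESeq2 called 4 and 38. Both counts of unadjusted p lay under the share of 0.05 of all genes that chance alone would give. With so few genes called in any set, 0 members called was no departure from the background.

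Tcf3, the targeted gene, was measured at 15.8, 15.8 and 12.8 CPM in E47KO livers after Dex and at 12.1 and 13.3 CPM in WT livers. Replicate 3 of the mutants fell between the controls, and the log2 difference of 0.23 ± 0.17 (SE) had an adjusted p of 0.999. After Cort the WT livers held 19.2, 16.2, 17.1 and 18.9 CPM and the E47KO livers 20.2, 17, 17.8 and 20.7 CPM, which overlapped over most of their range (log2 difference 0.09 ± 0.10, adjusted p = 0.822). At 1 h after Dex, controls held 6.47, 7.53 and 6.28 CPM and AlbCreE47KO livers 7.24, 7.21 and 6.93 CPM. All 3 mutants lay within the range of the controls, at a log2 difference of 0.09 ± 0.14 (adjusted p = 1).

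Untreated E47KO livers held a lowest, median and highest Tcf3 level of 11.7, 12.2 and 14.1 CPM, and the WT livers 14.1, 18.5, 11.9, 13.1 and 12.2 CPM. WT replicate 2 stood above all others, the remaining libraries overlapped, and the log2 difference was -0.15 ± 0.12 (adjusted p = 0.965). In WAT, the WT samples held 13.6 and 12.6 CPM and the E47KO samples 12.8 and 12.0 CPM. In muscle the WT samples held 8.69 and 10.8 CPM and the E47KO samples 8.70, 11.04 and 12.1 CPM, again with overlap. Since gene counts merge E12 and E47, these values did not show whether the E47 exon was absent.

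The other E proteins moved little. Log2 differences between mutants and controls ran from -0.03 to 0.17 for Tcf4 and from -0.04 to 0.13 for Tcf12 over the 6 sets. Tcf4 in muscle was the only E protein whose groups did not overlap, at 41.3, 39.7 and 35.8 CPM in E47KO and 35.7 and 35.3 CPM in WT. The gap between the lowest mutant and the highest control was small beside the spread of the mutants, and the log2 difference of 0.15 ± 0.12 had an adjusted p of 1. Among 11918 genes with a mean of at least 1 CPM in muscle, 15.1% also had groups without overlap.

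The Id genes varied more, both within and between genotypes. Id2 in Dex-treated liver measured 127, 144 and 288 CPM in E47KO and 123 and 104 CPM in WT mice. All mutants were above both controls, replicate 3 by far, with a log2 difference of 0.72 ± 0.36 (adjusted p = 0.999). Such separation was found in 14.8% of 11850 genes in these 5 livers, and Id2 was the only 1 of the 7 genes to show it. Id3 in the same livers reached 82.1 CPM in E47KO replicate 3 and 45.9 to 59.9 CPM in the other 4.

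In WAT, Id1 was 10.2 and 7.81 CPM in E47KO and 13.3 and 11.6 CPM in WT mice, a log2 difference of -0.48 ± 0.17 with an adjusted p of 0.977 and the only unadjusted p under 0.05 among the 41. Id3 was 51.0 and 56.2 CPM in E47KO and 39.7 and 48.4 CPM in WT, and Id4 was 0.61 and 0.46 against 0.35 and 0.46 CPM. Both E47KO samples lay below both WT samples for Id1 and above them for Id3, and for Id4 the lowest mutant and the highest control were equal to 3 digits. Separation of 2 against 2 samples was found in 33.2% of 12536 genes in WAT, against 3 of the 7 genes here, of which Id4 lay under the mean of 1 CPM used for that share.

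After Cort, Id1 was 15.5, 9.45, 6.31 and 5.15 CPM in E47KO livers and 6.29, 8.02, 2.88 and 3.56 CPM in WT livers. The highest value was in an E47KO mouse and the 2 lowest in WT mice, but the groups overlapped, and the log2 difference of 0.82 ± 0.41 had an adjusted p of 0.572. Id2 after Cort differed by 0.83 ± 0.52 (adjusted p = 0.665) and Id3 by 0.57 ± 0.55 (adjusted p = 0.799). No member had groups without overlap after Cort, at 1 h or in untreated liver, where 7.03%, 8.02% and 0.337% of genes did. At 1 h Id4 did not pass the filter on low counts, which left 6 of 7 genes tested.

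**Figure D3:**
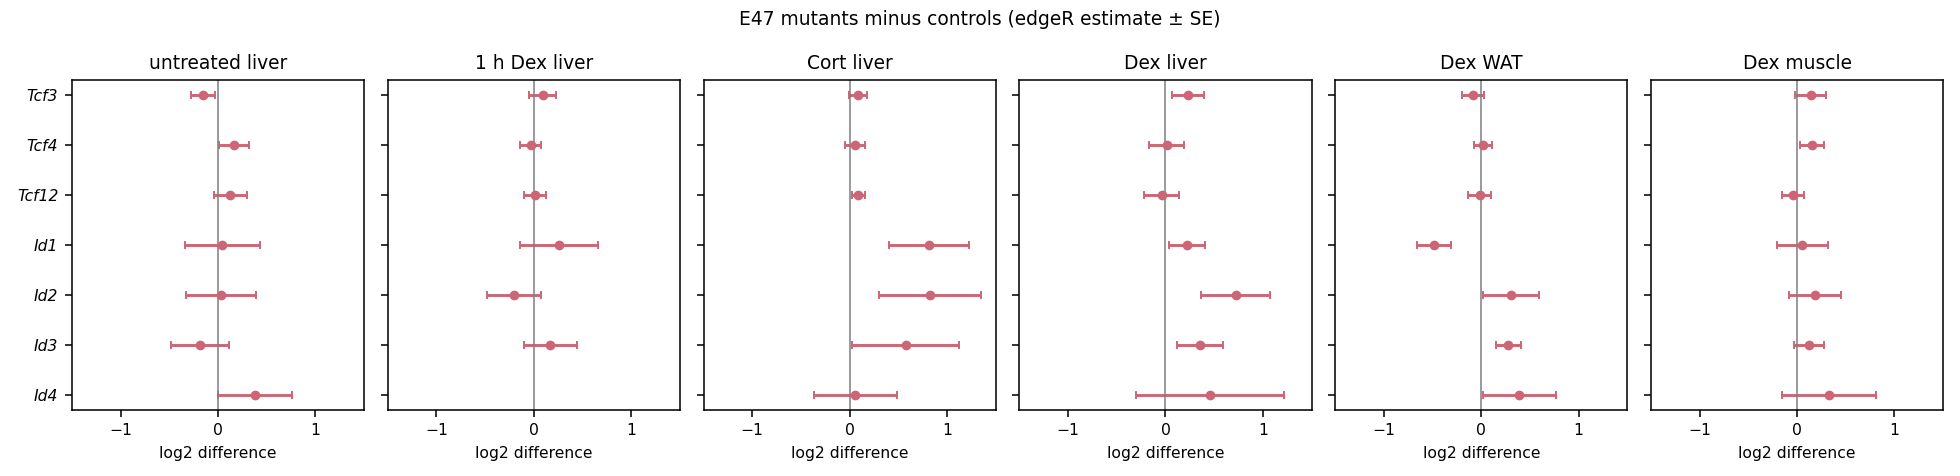
Log2 difference between mutant and control for each of the 7 genes in the 6 sets (1 panel each), with bars of 1 standard error from edgeR and a line at 0. Values run from -0.48 for Id1 in WAT to 0.83 for Id2 in liver after Cort, and Id4 at 1 h after Dex is absent since its counts were too low to test.

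Whether the genotype difference itself changed with tissue or treatment was tested in joint fits. Of 42 differences of genotype effects, 0 were called by edgeR or DESeq2 and 0 had an unadjusted p under 0.05 in edgeR, against 0.00616% of 16227 genes called in each of the 3 liver contrasts and 0.0%, 0.0% and 0.011% of 18113 in the tissue contrasts. The smallest p was that of Tcf3 between Dex-treated and untreated liver, where the effect of genotype was higher after Dex by a log2 value of 0.38 ± 0.19 (adjusted p = 1). Partner genes gave the same count. Of the 86 entries on 7 lists of bHLH partners, cofactors and BMP pathway genes, 55 to 63 were tested per set, 0 were called by genotype by either tool, and 1 to 7 per set had an unadjusted p under 0.05.

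Tissues were compared next. After 3 weeks of Dex, with both genotypes in the fit, 6 of 7 genes differed between liver and muscle, 4 between liver and WAT and 3 between muscle and WAT. Most genes of the genome did so too, at 76.4%, 75.4% and 77.3% of 18113. The share of 6 of 7 lay a little above this background, and the shares of 4 and 3 of 7 lay under it. In bulk tissue fewer cells of a type and less RNA per cell cannot be told apart. The median of all genes lay at -0.11 (liver to muscle), -0.19 (liver to WAT) and -0.25 (muscle to WAT) on the log2 scale.

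Id2 marked liver. Dex-treated livers held 104 to 288 CPM, WAT held 3.61, 6.34, 6.64 and 5.67 CPM, and muscle held 1.36, 2.16, 1.70, 1.45 and 1.64 CPM. The 3 tissues did not overlap, and Id2 was higher in liver by 6.35 ± 0.30 against muscle (adjusted p = 1.01e-09) and by 4.68 ± 0.28 against WAT (adjusted p = 1.55e-08) on the log2 scale. It was also lower in muscle than in WAT, by a log2 difference of -1.67 ± 0.27 (adjusted p = 9.41e-05).

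Id3 was shared by liver and WAT and low in muscle. Livers held 45.9 to 82.1 CPM, WAT 39.7, 48.4, 51.0 and 56.2 CPM, and muscle 6.15, 6.12, 7.80, 5.95 and 6.48 CPM. Muscle lay below every sample of the other tissues, at a log2 difference of 2.99 ± 0.16 for liver against muscle (adjusted p = 2.33e-09) and -2.83 ± 0.16 for muscle against WAT (adjusted p = 6.37e-09). Liver and WAT overlapped (0.16 ± 0.15, adjusted p = 0.341).

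Id1 fell in steps from liver to WAT to muscle. It measured 15.8, 19.4, 20.5, 18.1 and 13.8 CPM in liver, 13.3, 11.6, 10.2 and 7.81 CPM in WAT and 4.86, 4.50, 7.91, 4.93 and 6.27 CPM in muscle. Every liver was above every WAT sample, while the highest muscle sample passed the lowest WAT sample by a small margin, and the log2 differences were 0.67 ± 0.18 for liver against WAT (adjusted p = 0.0048) and 1.49 ± 0.18 for liver against muscle (adjusted p = 6.49e-06). In the WT groups alone, Id1 did not pass the test between liver and WAT (0.33, adjusted p = 0.298).

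Id4 was higher in liver than in muscle by 2.63 ± 0.49 (adjusted p = 0.000344) and than in WAT by 1.73 ± 0.47 (adjusted p = 0.00525), at levels of 2.25, 2.70, 0.58, 2.15 and 0.51 CPM in liver. The 3 livers of the earlier animal numbers held 2.15 to 2.70 CPM and the other 2 held 0.51 to 0.58 CPM, which overlapped the WAT values. Without WT replicate 1 the call against WAT was lost (1.02, adjusted p = 0.105). All 9 endothelial markers were also higher in these 3 livers, with summed levels of 299.9 to 322.7 CPM against 120.6 and 128.5 CPM. Their part in the Id4 value was not tested.

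Of the E proteins, Tcf4 was lowest in liver. It measured 41.9, 42.9, 42.4 and 44.0 CPM in WAT, 41.3, 39.7, 35.8, 35.7 and 35.3 CPM in muscle and 13.5, 12.9, 10.9, 13.7 and 11.04 CPM in liver. Liver stood below the other tissues without overlap, at log2 differences of -1.69 ± 0.09 against muscle (adjusted p = 3.77e-09) and -1.82 ± 0.10 against WAT (adjusted p = 4.58e-09). Muscle and WAT did not differ past the threshold (-0.12 ± 0.09, adjusted p = 0.236). Stellate and fibroblast markers summed to 654.4 to 1077 CPM in WAT, 322.4 to 527.4 in muscle and 162.0 to 213.1 in liver, and the part of these cells in the Tcf4 level was not tested.

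Tcf3 and Tcf12 were close to even across the tissues. Between muscle and WAT, Tcf3 was not called in edgeR (-0.25 ± 0.12, adjusted p = 0.0787). It was called in a limma-voom fit with animal as a random effect (-0.26, adjusted p = 0.045). Tcf3 was higher in liver than in muscle by 0.32 ± 0.12 (adjusted p = 0.025), a call that was lost without E47KO liver replicate 2, WT liver replicate 2 or WT muscle replicate 1 (log2 differences of 0.30, 0.28 and 0.24, adjusted p of 0.0514, 0.0851 and 0.128). Tcf12 passed the test in none of the 3 contrasts, with 29.6 to 42.2 CPM in liver, 27.8 to 32.2 in WAT and 29.4 to 33.3 in muscle. Its contrast of liver against WAT (0.22 ± 0.11, adjusted p = 0.0782) passed with RLE size factors (0.30, adjusted p = 0.0217), with DESeq2 (0.29, adjusted p = 0.0176) and without E47KO liver replicate 3 (0.28, adjusted p = 0.0195).

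The listed partner and pathway genes were tested in the same contrasts. Of 19 bHLH partners tested, 17 differed between liver and muscle, 13 of them higher in muscle, among them the myogenic factor Myf6 at 44.7 and 73.4 CPM in WT muscle and at 0 CPM in WT liver. All 5 listed BMP and Smad target genes of liver other than Id genes were higher in liver than in muscle. This list was made of target genes of liver, so its direction does not compare BMP signalling between tissues. Of 7 BMP ligands, 5 were higher in liver than in muscle. Across all lists 64 of 73 entries tested were called between liver and muscle, 58 between liver and WAT and 60 between muscle and WAT, beside 76.4%, 75.4% and 77.3% of all genes.

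The second question was how the members stood in treated against untreated liver. The drinking-water sets were experiments of their own with overnight fasting and a glucose test. The Dex set was also sequenced without strand. In the Cort libraries the larger strand column held 50.05% to 50.1% of the reads of both, against 96.93% to 97.5% in the untreated ones. The 1 h set was an experiment of its own with floxed controls, so treatment cannot be told apart from any of these. The same untreated livers served in all 4 contrasts. Against untreated livers of the same genotype, Cort gave 1 member called in WT mice (33.2% of 16227 genes called) and 4 in E47KO mice (38.9%). Dex for 3 weeks gave 3 over both genotypes (51.4%), and the controls at 1 h gave 4 (20.4%). The shares of 1 and 3 of 7 lay under the background, and the shares of 4 of 7 lay above it. Without the 3 untreated livers of the earlier library numbers, these counts were 3, 5, 3 and 3 (33.4%, 44.6%, 53.4% and 17.3% of all genes). Without the 3 Cort livers of the earlier animal numbers, edgeR called 0 members in WT (28.5% of all genes) and 2 in E47KO livers (25.8%).

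**Figure D4:**
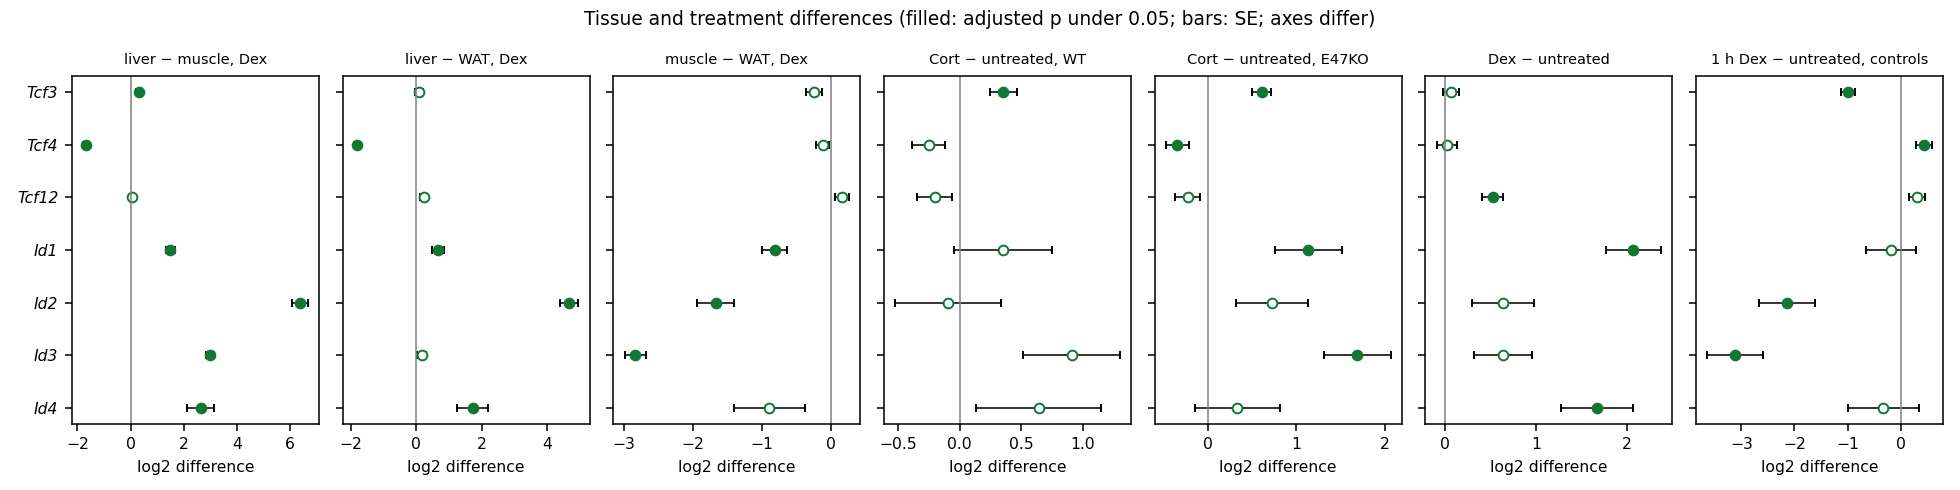
Log2 differences of the 7 genes between tissues after Dex (3 panels) and between treated and untreated livers (4 panels, axes differ), with bars of 1 standard error and filled points for an adjusted p under 0.05 in edgeR. Id2 is 6.35 higher in liver than in muscle, and Tcf3, Id2 and Id3 are lower 1 h after Dex by 0.99, 2.14 and 3.12.

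The set taken 1 h after Dex held the lowest Tcf3, Id2 and Id3 levels of all livers. Tcf3 was 6.47, 7.53 and 6.28 CPM in controls at 1 h and 14.1, 18.5, 11.9, 13.1 and 12.2 CPM in untreated WT livers. The groups did not overlap, and the log2 difference was -0.99 ± 0.13 (adjusted p = 7.77e-06). After 3 weeks of Cort, in contrast, Tcf3 stood at 16.2 to 20.7 CPM, which was 0.35 ± 0.11 above untreated in WT (adjusted p = 0.0153) and 0.61 ± 0.11 above it in E47KO livers (adjusted p = 7.67e-05). The call in WT was lost when only those groups were fitted (0.34, adjusted p = 0.1) and without the 3 Cort livers of the earlier animal numbers (0.33, adjusted p = 0.0502). After 3 weeks of Dex, Tcf3 did not differ past the threshold (0.07 ± 0.09, adjusted p = 0.562).

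Id2 was 31.4, 17.1 and 12.7 CPM in controls at 1 h and 38.5, 106, 126, 90.8 and 105 CPM in untreated WT livers. All 3 were below all untreated WT livers, by -2.14 ± 0.52 on the log2 scale (adjusted p = 0.00468), although E47KO untreated replicate 1, at 31.5 CPM, lay only just above the highest of them. Id3 was 4.18, 4.63 and 3.97 CPM at 1 h against 21.8, 51.2, 34.1, 38.0 and 47.1 CPM, a log2 difference of -3.12 ± 0.53 (adjusted p = 0.000154) with no overlap. Leaving out the 3 untreated livers of the earlier library numbers gave -2.35 for Id2, -3.17 for Id3 and -0.82 for Tcf3, all still called. Tcf4 was higher at 1 h by 0.45 ± 0.15 (adjusted p = 0.031), but lost the call without control replicate 1 or 3 of the 1 h set (adjusted p of 0.109 and 0.0971), without WT untreated replicate 1 or 2 (0.0689 and 0.0799) and without the 3 earlier untreated livers (0.0997). The mutants at 1 h, whose values were not part of this contrast, lay at 16.3 to 18.8 CPM for Id2 and 2.88 to 5.81 CPM for Id3.

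Id1 and Id4 stood highest after 3 weeks of Dex. Id1 was 15.8, 19.4 and 20.5 CPM in E47KO and 18.1 and 13.8 CPM in WT livers, against 1.74 to 7.69 CPM in all 11 untreated livers. No Dex-treated liver overlapped the untreated ones, and the log2 difference was 2.08 ± 0.31 (adjusted p = 3.42e-06). Id4 was higher by 1.68 ± 0.40 (adjusted p = 0.00105), but the 2 livers of the later animal numbers, at 0.51 and 0.58 CPM, lay inside the untreated range of 0.28 to 1.22 CPM, and without WT replicate 1 the call was lost (0.97, adjusted p = 0.139). Tcf12 was higher by 0.53 ± 0.12 (adjusted p = 0.000465), and by 0.38 without the 3 earlier untreated livers (adjusted p = 0.000301).

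After Cort, Id3 was higher in E47KO livers by 1.69 ± 0.38 (adjusted p = 0.000955) and Id1 by 1.13 ± 0.38 (adjusted p = 0.0188). The E47KO livers held 142, 157, 63.2 and 69.1 CPM of Id3, against a lowest, median and highest of 13.5, 36.8 and 44.9 CPM untreated. All 4 treated livers were above all untreated ones, the first pair most of all. Without the 3 Cort livers of the earlier animal numbers, Id3 kept the call at 0.99 (adjusted p = 0.0231), while Id1 fell to 0.47 (adjusted p = 0.466). Without E47KO Cort replicate 1 the Id1 value was 0.75 (adjusted p = 0.143). In WT livers, Id3 was at 171, 48.4, 33.5 and 38.6 CPM after Cort, where replicate 1 alone exceeded the untreated range (0.91 ± 0.39, adjusted p = 0.076), and the value was 0.07 (adjusted p = 0.884) without the 3 Cort livers of the earlier animal numbers, of which it is 1.

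Tcf4 was lower after Cort in E47KO livers by a log2 difference of -0.34 ± 0.13 (adjusted p = 0.0368), a call lost without E47KO Cort replicate 2, 3 or 4 (adjusted p of 0.0838, 0.0692 and 0.0906), without any of E47KO untreated replicates 2 to 5 (0.0588 to 0.0669), or without the 3 earlier Cort livers (0.0967). Once the 3 untreated livers of the earlier library numbers were left out, both Tcf4 and Tcf12 were lower after Cort in both genotypes, Tcf4 by -0.45 and -0.43 and Tcf12 by -0.43 and -0.33 (adjusted p of 0.00106, 0.000281, 0.00291 and 0.00556).

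Genes of the BMP pathway were followed as lists, since the Id genes are known targets of it. Their values are from fits of all livers, and whether they hold without the split livers was not tested. Of 5 BMP and Smad target genes of liver other than Id genes, 3 were higher after Dex, near the share of all genes called (51.4%). They were the inhibitory Smads Smad7 (1.30 ± 0.19, adjusted p = 2.34e-06) and Smad6 (0.86 ± 0.18, adjusted p = 0.000348) and the bHLH factor Atoh8 (1.76 ± 0.27, adjusted p = 6.46e-06). Smad7 lay at 16.8 to 27.7 CPM in Dex-treated livers and 5.20 to 13.2 CPM in untreated ones, without overlap. The same 3 were higher after Cort in E47KO livers, by 0.99, 0.81 and 1.10 (38.9% of all genes called). In WT livers after Cort 0 of the 5 were called (33.2% of all genes). Hamp and Bambi, also on this list, were called neither after Dex nor after Cort. The median of the 5 was 0.86 after Dex, 0.81 in E47KO and 0.35 in WT livers after Cort and -0.33 at 1 h, against -0.025, -0.005, 0.005 and -0.043 over all genes. At 1 h, Smad7 and Smad6 were lower (-1.22 and -0.78, adjusted p of 0.00371 and 0.0437) and Bambi, a pseudoreceptor, was higher (1.60 ± 0.15, adjusted p = 5.54e-08).

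Of 7 BMP ligands 4 were lower after Cort in WT livers (33.2% of all genes called in either direction), among them Bmp6, the ligand best known for control of iron by the liver (-1.33 ± 0.29, adjusted p = 0.00129), and Bmp4 (-1.30 ± 0.34, adjusted p = 0.0046), and 6 of 7 were lower in E47KO livers (38.9%). Of 6 Kupffer cell markers, 5 and 4 were lower in WT and E47KO livers, above these shares of all genes. Of 9 endothelial markers, 3 and 2 were lower, near the share in WT and under it in E47KO livers. Of 6 stellate and fibroblast markers, 2 were higher and 0 lower in WT livers, and 0 were higher and 1 lower in E47KO livers. Kupffer cell markers summed to 34.2 to 75.3 CPM after Cort and 75.7 to 194 CPM untreated, and endothelial markers to 119 to 194 and 146 to 276 CPM. The part of these cells in the ligand values was not tested. After Dex, 2 ligands were lower and Bmp10 was higher (1.42 ± 0.31, adjusted p = 0.000435). Of the receptors, hemojuvelin (Hfe2), a BMP coreceptor, was higher after Dex by 1.31 ± 0.08 (adjusted p = 4.66e-12), at 156 to 187 CPM against 58.6 to 86.3 CPM untreated. Of 18 cofactors and turnover genes, 10 differed after Dex, 4 and 3 after Cort in WT and E47KO livers and 6 at 1 h, beside 51.4%, 33.2%, 38.9% and 20.4% of all genes, so the count after Dex was near the background and those after Cort were under it. They included Usp1, a deubiquitinase that stabilizes Id proteins, which was higher after Dex (0.83 ± 0.11, adjusted p = 4.95e-07) and at 1 h (0.84 ± 0.15, adjusted p = 0.0002).

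Promoter sequences were available from RefSeq (GRCm38.p6) for 5 of 7 members, in 7 windows of 250 bases before to 50 after a start. Stretches of 3 of them outside annotated exons, of Tcf3, Id2 and Id4, are shown as examples of an E protein and of Id genes that differed between treated and untreated livers. The RefSeq start used for Id2 lies inside the gene as annotated by GENCODE, so its stretch precedes an internal start and not the 5′ end of the gene. Capitals mark matches to the letters searched, on either strand: the E-box CANNTG, its form CAGCTG, the glucocorticoid receptor half-site AGAACA and the Smad site GGCGCC.
Tcf3 promoter, chr10:80433648-80433885, minus strand: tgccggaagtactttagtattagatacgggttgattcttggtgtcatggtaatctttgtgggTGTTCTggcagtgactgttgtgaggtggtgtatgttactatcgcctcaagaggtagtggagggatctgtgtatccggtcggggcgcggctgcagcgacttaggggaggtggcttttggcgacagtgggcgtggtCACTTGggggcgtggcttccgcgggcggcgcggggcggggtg
Id2 before an internal start, chr12:25096254-25096342, minus strand: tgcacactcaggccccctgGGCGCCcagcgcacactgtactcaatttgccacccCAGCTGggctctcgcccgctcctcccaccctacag
Id4 promoter, chr13:48260866-48261115, plus strand: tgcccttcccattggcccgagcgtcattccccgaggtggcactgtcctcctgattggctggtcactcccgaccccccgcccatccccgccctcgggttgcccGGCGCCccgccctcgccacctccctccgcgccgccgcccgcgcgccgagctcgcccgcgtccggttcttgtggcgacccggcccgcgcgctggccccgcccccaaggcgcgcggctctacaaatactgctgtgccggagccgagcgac
In the Tcf3 stretch the half-site lay at -188 from the start, written here as its reverse complement, and an E-box at -54. In the Id2 stretch GGCGCC lay at -231 and CAGCTG, which is also an E-box, at -196, and in the Id4 stretch GGCGCC lay at -148. Among 32851 promoter windows of the same length, 66.2% held CANNTG, 13.0% CAGCTG, 16.1% AGAACA and 9.59% GGCGCC. Tcf12, which also differed after Dex, held CAGCTG at -240 in one window and an E-box at -149 in another, and these are not shown. The window of Id3, which also differed between treated and untreated livers, held no match to any of the letters searched. These are matches of letters only.

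Id2 and Id3 also divided livers of the same group. Among Cort-treated livers, Id2 was 171, 209 and 257 CPM in the 3 mice of the earlier animal numbers and 46.0 to 91.4 CPM in the other 5, and Id3 was 142 to 171 against 33.5 to 69.1 CPM. Both genotypes stood on either side of the gap. With genotype in the fit, the later mice were lower by -1.54 ± 0.18 for Id2 (adjusted p = 0.00103) and -1.58 ± 0.18 for Id3 (adjusted p = 0.000977), where 10.3% of 14588 genes were called. This contrast was chosen after the values were seen. The same 3 livers had summed Kupffer cell markers of 34.2 to 46.1 CPM against 49.0 to 75.3 CPM, hepatocyte markers of 89730 to 103100 against 105000 to 148500 CPM and muscle fibre markers of 0.74 to 1.02 against 118.7 to 161.8 CPM. The part of these in the split was not tested. After Dex, 0.609% of genes were called between animal ranges in liver, where edgeR called 0 members (2 with an unadjusted p under 0.05), and Id4 had -2.09 ± 0.32 (adjusted p = 0.0868).

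**Figure D5:**
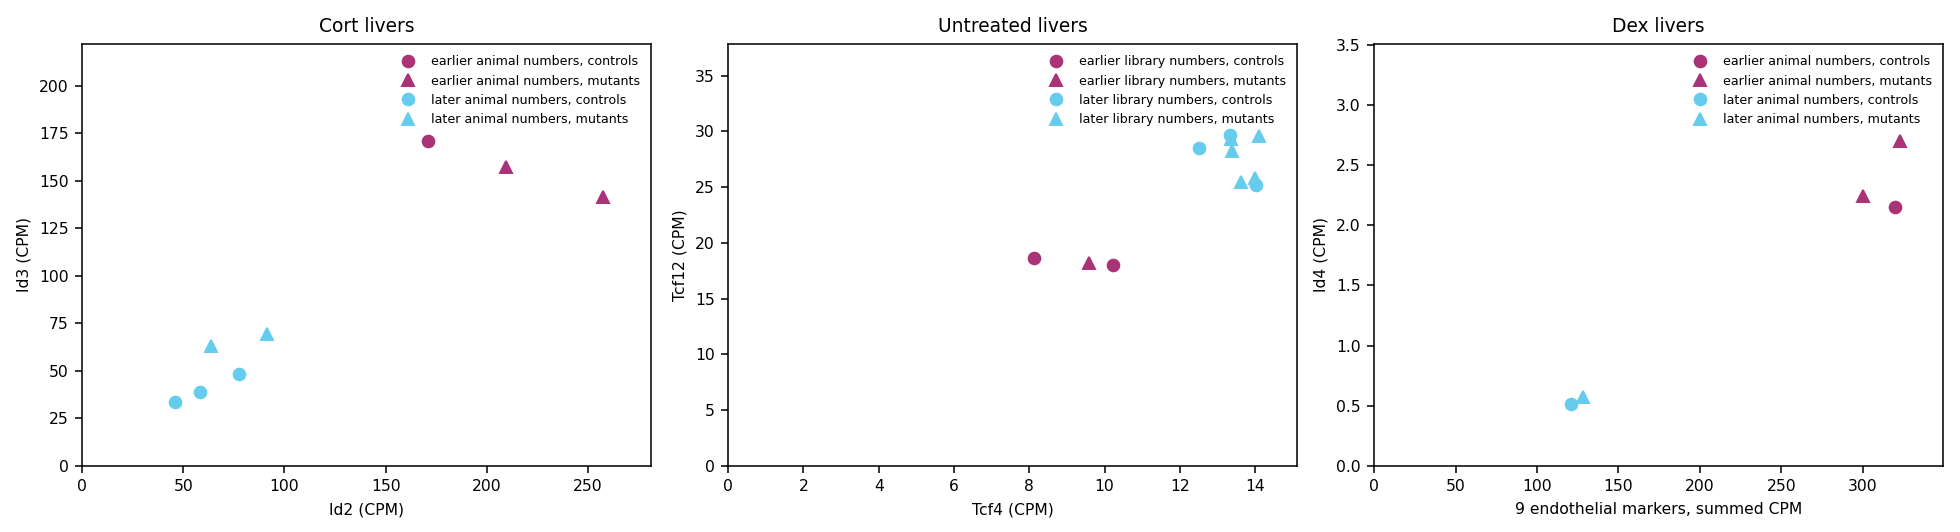
Each point is 1 liver, coloured by earlier or later animal or library numbers, with circles for controls and triangles for mutants. The panels plot CPM of Id3 against Id2 after Cort, Tcf12 against Tcf4 in untreated livers, and Id4 against the summed CPM of 9 endothelial markers after Dex, and in each the earlier livers lie apart from the later ones with both genotypes on each side.

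Among untreated livers, a split by library numbers was clearest in Tcf12 and Tcf4. Tcf12 was 18.0 to 18.6 CPM in the 3 earlier libraries and 25.2 to 29.7 CPM in the other 8, and Tcf4 was 8.13 to 10.2 against 12.5 to 14.1 CPM. Neither overlapped, and the later libraries were higher by 0.63 ± 0.08 for Tcf12 (adjusted p = 0.00019) and 0.55 ± 0.08 for Tcf4 (adjusted p = 0.00049), where 36.6% of all genes were called. Id2 was also higher in the later libraries (1.02 ± 0.37, adjusted p = 0.0488), with overlap. Muscle fibre markers summed to 1.00 to 1.56 CPM in the earlier libraries and 14.7 to 246.6 CPM in the later ones, and their part was not tested. Within the untreated set, genotype gave 0 members called in edgeR with the range of library numbers in the fit (0.0288% of genes). The 2 untreated livers of the first range of animal numbers, E47KO replicate 1 and WT replicate 1, held 31.5 and 38.5 CPM of Id2 against 78.5 CPM or more in the other 9. Id2 was lower in them than in each of the 3 later ranges, by -1.81, -1.41 and -1.69 (adjusted p of 0.0262, 0.0188 and 0.00859), where 0.561%, 14.9% and 18.9% of genes were called. Id3 was also lower than in ranges 3 and 4 (-1.18 and -1.22, adjusted p of 0.0306 and 0.0218). The same held for Tcf12 (-0.63 and -0.73, adjusted p of 0.0292 and 0.0164). Against range 2 neither passed (adjusted p of 0.0579 and 0.154). Among WAT and muscle samples split by animal range, edgeR called 0.0% and 0.234% of genes and no member, with 1 member in each, Id1, at an unadjusted p under 0.05 (DESeq2 was not run on these splits). All contrasts between ranges of library or animal numbers, here and in the Dex livers, were likewise chosen after the values were seen.

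Over the 30 livers, with the mean of each group removed, 2 of 21 pairs of members were correlated past an adjusted p of 0.05. Id2 and Id3 gave a Pearson r of 0.825 (permutation p = 7e-05, adjusted p = 0.00147) and a Spearman rho of 0.764 (permutation p = 0.00015, adjusted p = 0.00315). The r was 0.765 without the 2 livers farthest from the median of Id2. It was 0.224 over the 21 livers that could be compared within a group and a range of animal numbers, so the relation did not hold within ranges. Within sets it was 0.9 after Dex (n = 5), 0.934 after Cort (n = 8), -0.113 at 1 h (n = 6) and 0.878 untreated (n = 11).

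Tcf4 and Tcf12 gave an r of 0.759 (permutation p = 0.00176, adjusted p = 0.0185) and a rho of 0.646 (permutation p = 0.00314, adjusted p = 0.033). Without the 2 livers farthest from the median of Tcf4 it was 0.613, and within ranges of animal numbers 0.645. Within sets it was 0.835 after Dex, -0.448 after Cort, 0.618 at 1 h and 0.865 untreated, so the sign was not shared by the Cort livers. Tcf3 was not correlated with any other member past the threshold.

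The genes whose log2 levels ran closest to each member were listed by Pearson r as a description. Over the deviations in 30 livers among 12023 genes, Id3 ran closest to Socs3, an inhibitor of cytokine signalling (0.845), Cxadr (0.845) and Gclc (0.84), and Id2 to Acbd5 (0.866), Gclc (0.849) and 1700066M21Rik (0.841). Tcf12 ran closest to Lysmd3 (0.918), Dr1 (0.91) and Cdk13 (0.909), Tcf4 to Usp12 (0.912), Ago2 (0.878) and Adam17 (0.865), and Tcf3 to Irf2bpl (0.805), Gigyf1 (0.744) and Csnk1e (0.723). The closest for Id1 and Id4 were Gm49340 (0.71) and Pxk (0.723). Over the means of the 12 groups, Tcf4 ran closest to Plxdc2 (0.997), Id2 to Cbx2 (0.991), Id4 to Arl6ip6 (0.986), Tcf12 to Gm13050 (0.981), Tcf3 to Frg2f1 (0.963), Id3 to Gm15764 (0.96) and Id1 to Gm26617 (0.926). The libraries of a set share their preparation and sequencing.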

How the data were processed

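The authors sequenced RNA of each sample, mapped reads to mm10 with STAR 2.4.2a and deposited 1 table of counts per gene and library; HTSeq and DESeq2 are also named in the submitters' processing notes. The deposited counts are whole numbers without normalization, and the column that ignores strand was used here because the libraries of mice given Dex in drinking water were made without strand. In the tables with columns by strand, the larger one held 50.05% to 50.1% of the reads of both in the Cort libraries, against 96.9% to 97.7% in the 1 h and untreated ones. A further 6 deposited tables, which hold the authors' comparisons (log2 fold changes and p-values), were not used.

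Counts were tested with the quasi-likelihood test of edgeR 4.0.16 (TMM factors, filterByExpr, Benjamini-Hochberg adjustment over all genes, threshold 0.05) in R 4.3.3. Genotype was tested within each set, tissue with genotype in the fit, and treatment and differences of genotype effects across the liver sets. CPM used TMM-scaled library sizes, and values per kilobase used exons of the GENCODE annotation on GRCm38. Correlations used 100000 permutations of deviations from group means of log2 CPM with a prior count of 2. DESeq2 1.42.0, limma 3.58.1 and other settings served as alternatives. P-values set each difference against the spread between these libraries and do not cover spread between experiments. Liver and muscle libraries of the same mouse counted as independent in edgeR. Depth was 15.5e6 to 54.6e6 counts per library, and members with few counts, such as Id4, are the least precise.

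All 7 members were named in every comparison, with up to 4 genes per list by smallest adjusted p and the 3 genes most like each member. The members and lists were chosen with earlier results of these data known. Atoh8 stands on 2 lists. Same-numbered mutants and controls deviated together (correlation over 0.1) in 0 of 2 pairs after Dex in liver, 3 of 4 after Cort, 2 of 3 at 1 h, 3 of 5 untreated and 1 of 2 in muscle. These counts do not settle whether the numbers mark pairs, and the main tests did not take them as pairs. Replicate 1 of both genotypes shared a range of animal numbers in the Dex liver, Cort and untreated sets. Fits with a replicate block are given below. Scripts were tested on simulated data.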

Additional observations from a re-analysis of the deposited data

Results flagged for a closer look

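Over the 28 combinations of a member and a group of 4 to 6 livers, 3 had a value far from the rest of the group by Dixon's test, which chance gives in about 1 in 20 groups. Tcf4 in untreated E47KO replicate 1 was 9.588 CPM, against 13.35 to 14.1 CPM in the other 5 livers. Tcf12 in the same liver was 18.18 CPM, against 25.46 to 29.57 CPM. Id3 in WT replicate 1 after Cort was 170.8 CPM, against 33.46 to 48.38 CPM in the other 3. The first liver belongs to the 3 untreated livers of the earlier library numbers, and the last to the 3 Cort livers of the earlier animal numbers.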

How the results depend on the processing

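No value of a member that was called changed sign under an alternative. Between liver and WAT, 4 members were called, and 2 in the WT groups alone. After Cort in WT livers 1 was called, but 0 in a fit of the groups compared, 3 without the 3 untreated livers of the earlier library numbers, 0 without the 3 Cort livers of the earlier animal numbers, and 1 to 2 when single libraries were left out (2 without WT Cort replicate 3 or 4, where Id3 joined, or without untreated WT replicate 2, where Tcf4 joined). After Cort in E47KO livers 4 were called, and 2 without the earlier Cort livers. These last alternatives were chosen after seeing the data. Of the 2 correlated pairs, 0 passed within ranges of animal numbers, 0 within Cort, 0 within 1 h and 0 within untreated livers. In that order, r was 0.224, 0.934, -0.113 and 0.878 for Id2 and Id3. For Tcf4 and Tcf12 it was 0.645, -0.448, 0.618 and 0.865, so not passing in these smaller sets does not show a lack of correlation.

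Leaving out single libraries gave 5 to 6 members called between liver and muscle, 3 to 5 between liver and WAT, 3 to 4 between muscle and WAT, 3 to 5 after Cort in E47KO, 2 to 3 after Dex and 3 to 4 at 1 h, and 0 in all 6 genotype comparisons and all 6 differences of them. With a replicate block, 0 members were called by genotype in the 5 sets where it could be fitted. Over all genes the block gave 0 calls after Dex in liver (1 without it), 29 after Cort (4), 2 untreated (4) and 1 in muscle (2). No paired analysis was possible by replicate number in WAT because the groups share 1 number, and with the range of animal numbers as a covariate 0 members were called there.

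Counts over all genes moved more than those of members. DESeq2 called 21, 258, 4, 16, 38 and 90 genes by genotype (Dex liver, Cort, 1 h, untreated, WAT, muscle) against 1, 4, 0, 4, 0 and 2 in edgeR, and edgeR without a filter called 62, 13, 1, 8, 6 and 37. In WAT the 0 calls became 19 without E47KO replicate 2 and 333 without replicate 3. With the range of animal numbers as a covariate, Cort gave 67 calls. At 1 h against untreated, 3309 calls became 1657 in a fit of the groups compared. For differences of genotype effects, DESeq2 called 14 genes between Cort and untreated and 28, 5 and 47 between tissues, against 1, 0, 0 and 2. The causes were not tested. Low counts limit Id4 most.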
